A study of Mus musculus with 4 samples.

Results

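Goblet cells are the mucus-secreting cells of the intestinal epithelium, and 197 of them were found among 22679 cell barcodes from the distal jejunum of 4 mice. A barcode was counted as a goblet cell when at most 20% of its UMIs (unique molecular identifiers, 1 per captured RNA molecule) came from mitochondrial mt- genes, when it had at least 1 UMI of the epithelial gene Epcam and 2 or more UMIs in at least 3 of the 5 genes Muc2, Fcgbp, Clca1, Spink4 and Spdef, and when fewer than 3 of the 6 hormone-cell genes Chga, Chgb, Neurod1, Cck, Sct and Tph1 reached 2 UMIs. Of all barcodes, 10376 lay within the mitochondrial limit. All 197 goblet cells also held 3 or more UMIs over the keratins Krt8, Krt18 and Krt19. A UMI of the leukocyte gene Ptprc was found in 5 goblet cells of EC-Foxc-DKO mouse 1, in 1 of EC-Foxc-DKO mouse 2 and in 0 of either Control mouse.

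Single-cell RNA sequencing was performed on whole distal jejunum 18.5 h after small intestinal ischemia and reperfusion (I/R), an injury made by clamping the intestinal blood supply and letting it flow again. The 2 Control mice carried floxed alleles of Foxc1 and Foxc2 (Foxc1fl/fl;Foxc2fl/fl), and the 2 EC-Foxc-DKO mice carried the same alleles with Cdh5-CreERT2, a tamoxifen-inducible Cre recombinase under the promoter of Cdh5, a gene of endothelial cells. All mice were adult males that received tamoxifen and I/R, so an uninjured jejunum was not analysed here. The deletion was aimed at blood and lymphatic vessels, and Cre, Foxc1 and Foxc2 were all at 0 UMIs in the goblet cells of all 4 mice. In endothelial cells (no Epcam UMI, 1 or more UMIs of both Pecam1 and Cdh5) Foxc1 had 4 of 144240 UMIs in Control mouse 1, 10 of 390009 in Control mouse 2, 2 of 396628 in EC-Foxc-DKO mouse 1 and 2 of 176388 in EC-Foxc-DKO mouse 2, and Foxc2 had 0 in each, too few to check the deletion. Over all cells within the mitochondrial limit Cre had 0, 0, 5 and 4 UMIs in the same order, so it was read in the libraries labelled EC-Foxc-DKO only. Each mouse gave 1 library. Every p-value between genotypes therefore rests on 2 mice per group, and every p-value between cell classes on the 4 mice. Cells of 1 mouse were not treated as replicates.

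Goblet cells release polymerising gel mucins from apical granules, together with proteins that fold, cross-link and process the gel. Muc2 is the gel-forming mucin of the gut, Fcgbp and Clca1 are abundant proteins of the same gel, Spink4 is a small secreted peptide related to protease inhibitors, and Spdef is a transcription factor that drives goblet cell maturation. Goblet cells arise from crypt stem cells through the secretory program opened by Atoh1, which Notch signalling represses, and they carry a large endoplasmic reticulum (ER) because mucins are very large glycoproteins.

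Goblet cells numbered 55 in Control mouse 1, 10 in Control mouse 2, 79 in EC-Foxc-DKO mouse 1 and 53 in EC-Foxc-DKO mouse 2. Control mouse 2 and EC-Foxc-DKO mouse 2 stood apart. Control mouse 2 gave the fewest and shallowest goblet cells, with a median of 8736 UMIs per cell against 15289, 14627 and 20806 in Control mouse 1 and EC-Foxc-DKO mice 1 and 2, and its goblet cells had the highest median mitochondrial share, 14.1% against 8.68%, 6.37% and 6.11%. In EC-Foxc-DKO mouse 2, 26 of 53 goblet cells had 1% or more of their UMIs on Agr2 alone, against 1, 1 and 3 cells in Control mouse 1, Control mouse 2 and EC-Foxc-DKO mouse 1. Gene counts between genotypes, and the medians of 5 lists, are given with and without these libraries. The libraries shared 51 barcodes over all pairs, and no barcode was a goblet cell in 2 libraries.

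Cells just inside and just outside the rule are given as a description. The 27 goblet cells that met it with exactly 3 of the 5 genes held 11514 CPM of Zg16 (CPM, the count of a gene scaled to a total of 1000000 UMIs over the cells summed) and 5643 CPM of Tff3, neither of which the rule used. The 61 Epcam-positive cells just outside it, with 2 of the 5 genes, held 602 CPM of Zg16 and 933 CPM of Tff3. By mouse, Zg16 was higher inside in Control mouse 1 and in EC-Foxc-DKO mice 1 and 2 (8704, 13484 and 13631 CPM inside, 687, 372 and 383 CPM outside). In Control mouse 2, with 1 cell inside and 2 outside, it was lower inside (1614 and 2560 CPM), as was Tff3 (231 and 1132 CPM). In EC-Foxc-DKO mouse 2 Tff3 lay at 6341 CPM inside and 2931 CPM outside. Of the genes the rule used, which differ by its construction, Muc2 lay at 3106 CPM inside and 323 CPM outside and Fcgbp at 6625 and 450.0 CPM.

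The share of goblet cells among epithelial cells lay between 4.65% and 5.13% in 3 of the 4 mice and lower in Control mouse 1. It was 2.40% in Control mouse 1 (55 of 2290 cells, 95% exact binomial interval 1.81 to 3.11), 4.65% in Control mouse 2 (10 of 215, 2.25 to 8.39), 4.90% in EC-Foxc-DKO mouse 1 (79 of 1611, 3.9 to 6.07) and 5.13% in EC-Foxc-DKO mouse 2 (53 of 1034, 3.86 to 6.65). These intervals cover counting error only. Control mouse 1 lay below the other mice, and the share of Control mouse 2 lay within the intervals of both EC-Foxc-DKO mice. The group means were 3.53% ± 1.59 (SD, n = 2) in Control and 5.01% ± 0.157 (SD, n = 2) in EC-Foxc-DKO mice, a difference of 1.49 points that was smaller than the SD of the Control group. With 2 mice on each side the smallest p of an exact permutation test is 0.33, which cannot reach 0.05, and no test was run on the shares. With mitochondrial UMIs limited to 10%, the limit used by the study, the shares became 3.26%, 3.33%, 8.43% and 6.04% in the same order and the difference became 3.94 points, with Control mouse 2 at 3 of 90 cells (0.693 to 9.43). Without Control mouse 1 the difference was 0.364 points and without Control mouse 2 it was 2.61 points.

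**Figure D1:**
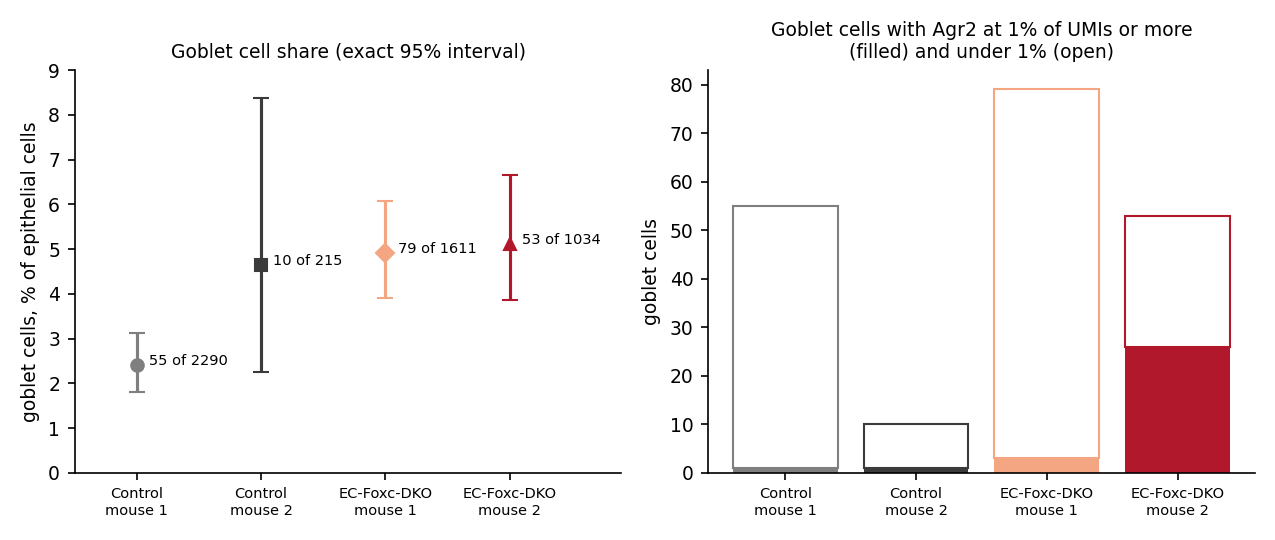
Left, goblet cells as a percentage of epithelial cells in each mouse, with exact 95% binomial intervals. Right, the number of goblet cells per mouse, with cells holding 1% or more of their UMIs on Agr2 filled and the others open. The filled part is 26 of 53 cells in EC-Foxc-DKO mouse 2 and at most 3 cells in each other mouse.

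Mucus transcripts dominated the RNA of these cells. The 15 genes of a mucus and secreted goblet product list summed to 164967 CPM in goblet cells of Control mouse 1, 248306 in Control mouse 2, 260971 in EC-Foxc-DKO mouse 1 and 132118 in EC-Foxc-DKO mouse 2, against 1576, 1642, 1431 and 2637 CPM in the other epithelial cells of the same mice. With so many UMIs in these genes, the CPM of every other gene moves with them. Single cells ranged widely around these sums. The mucus list took 0.286% to 57.0% of a cell's UMIs in Control mouse 1 (median 18.3%), 3.28% to 50.6% in Control mouse 2 (median 31.9%), 0.0487% to 67.8% in EC-Foxc-DKO mouse 1 (median 29.6%) and 0.6% to 55.8% in EC-Foxc-DKO mouse 2 (median 14.2%).

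Zg16, a secreted lectin that binds bacterial cell walls, was the most abundant transcript of goblet cells in all 4 mice and took 7.28%, 8.37%, 13.8% and 5.15% of their UMIs in Control mice 1 and 2 and EC-Foxc-DKO mice 1 and 2. Tff3, a trefoil peptide that supports epithelial restitution, took 3.54%, 5.17%, 4.93% and 2.55% in the same order. Agr2, an ER protein needed to fold Muc2, was the third most abundant transcript in EC-Foxc-DKO mouse 2, at 1.99%. Zg16 lies at chr7:127050156-127087328 on the minus strand, Tff3 at chr17:31125306-31129646 on the minus strand and Agr2 at chr12:35992907-36004087 on the plus strand of GRCm38, all as protein-coding genes.

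The 5 genes that chose the cells are given as levels, with no test. Muc2 (chr7:141690340-141754693, plus strand) stood at 16545, 23029, 23257 and 6909 CPM in Control mice 1 and 2 and EC-Foxc-DKO mice 1 and 2. Fcgbp (chr7:28071236-28120862, plus strand) stood at 24935, 36238, 31635 and 8569 CPM, and Clca1 (chr3:145003817-145032776, minus strand) at 4743, 5108, 6542 and 1502 CPM. All 3 gel proteins were therefore lowest in EC-Foxc-DKO mouse 2 and close to each other in the remaining mice. Spink4 (chr4:40920052-40931395, plus strand) went another way, at 2690, 22440, 3652 and 10321 CPM, and 1 cell held 88.3% of the Spink4 UMIs of Control mouse 2. Spdef (chr17:27714352-27728955, minus strand) stood at 95.6, 137, 80.0 and 261 CPM and was highest in EC-Foxc-DKO mouse 2.

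The promoters of Muc2 and Fcgbp, 2 gel genes of the same chromosome that were both lowest in EC-Foxc-DKO mouse 2, and of Agr2, which was highest in that mouse, are printed here as the 250 bases before the annotated start, from RefSeq on GRCm38.p6, all on the plus strand. Capitals mark matches to the motifs searched. Muc2 spans chr7:141690090-141690339, Fcgbp chr7:28070986-28071235 and Agr2 chr12:35992675-35992924.
Muc2: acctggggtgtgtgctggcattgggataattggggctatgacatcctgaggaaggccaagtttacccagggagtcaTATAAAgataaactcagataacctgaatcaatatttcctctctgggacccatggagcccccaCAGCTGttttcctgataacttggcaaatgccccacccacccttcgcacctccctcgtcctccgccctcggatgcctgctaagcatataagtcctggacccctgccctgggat
Fcgbp: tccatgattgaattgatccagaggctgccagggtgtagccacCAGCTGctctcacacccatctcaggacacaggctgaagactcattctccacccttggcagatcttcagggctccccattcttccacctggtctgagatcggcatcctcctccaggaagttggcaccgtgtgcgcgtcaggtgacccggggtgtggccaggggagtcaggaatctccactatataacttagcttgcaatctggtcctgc
Agr2: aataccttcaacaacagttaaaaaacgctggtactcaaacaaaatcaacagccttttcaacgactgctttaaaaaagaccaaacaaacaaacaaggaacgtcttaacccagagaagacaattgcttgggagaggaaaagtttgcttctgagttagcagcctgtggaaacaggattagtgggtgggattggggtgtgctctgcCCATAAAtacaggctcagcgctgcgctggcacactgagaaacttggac

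A promoter entry was found for 10 of the 19 goblet genes looked up, and 6 short motifs were searched on both strands. CAGCTG, an E-box that reads the same on both strands, was found 112 bases before the start of Muc2 and 208 bases before that of Fcgbp, and 13% of all 32851 promoters of the same length held it. TATAAA lay 174 bases before the start of Muc2 and was held by 12.4% of all promoters. TTTATGG, a caudal-type homeobox motif, lay on the minus strand 48 bases before the start of Agr2, where it reads CCATAAA, and was held by 2.43% of all promoters. The E-box CAGATG, the forkhead motif TGTTTAC and the unfolded protein response motif TGACGTGG were in none of the 10 promoters and in 14.4%, 3.17% and 0.563% of all promoters. A match is a description of the letters and says nothing of binding.

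Free RNA from lysed cells reaches all droplets, so the same genes were read in B cells (no Epcam UMI, 2 or more UMIs of Cd79a), which should not express them. A Zg16 UMI was found in 25.8%, 25%, 48.0% and 14.5% of B cells of Control mice 1 and 2 and EC-Foxc-DKO mice 1 and 2, at median depths of 3267, 3501, 3215 and 2183 UMIs, against 100%, 100%, 100% and 96.2% of the deeper goblet cells. The summed mucus list came to 354, 163, 456 and 197 CPM in B cells. Agr2 had a UMI in 2.2%, 0%, 1.0% and 3.0% of B cells. Free mucus RNA was thus present in each library, at levels far under those of goblet cells.

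The goblet cells of each mouse were then set against the other epithelial cells of the same mouse (2235, 205, 1532 and 981 cells, defined by Epcam, keratins and the absence of Ptprc), with UMIs summed per mouse and class and the mouse kept as a block in edgeR's quasi-likelihood fit. Of 8925 genes tested, 2059 passed a Benjamini-Hochberg adjusted p of 0.05, which is 23.1%. They comprised 882 genes higher (9.88%) and 1177 lower (13.2%) in goblet cells, and the median log2 difference of all genes was -0.02. Since the cells were picked by their own mucus RNA, any gene that goes with those 5 had to differ, so these counts and the log2 differences below (goblet over other epithelial, ± SE, n = 4 mice) describe the chosen cells and test nothing about them. Scaling by library size alone gave 2237 genes, of which 31.1% were higher in place of 42.8%, and shifted the median to -0.18. Without Control mouse 1, 1346 genes passed, and without the mouse block 954.

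All 8 mucus list genes tested outside the rule passed as higher, with a median log2 difference of 8.14, and Sval1, Tff1 and Tff2 were too low to be tested. Zg16 stood at 72769, 83731, 137965 and 51458 CPM in goblet cells and at 64.8, 35.6, 66.7 and 17.2 CPM in other epithelial cells, a log2 difference of 11.14 ± 0.58. Tff3 differed by 8.31 ± 0.47. Klk1, a kallikrein protease, stood at 182, 686, 389 and 523 CPM against 0.774, 9.04, 0.945 and 1.67 CPM (7.97 ± 0.41). Lypd8, which keeps flagellated bacteria from the epithelium, was higher by 1.32 ± 0.35 and was also found at 1262, 1384, 1167 and 2436 CPM in other epithelial cells. In EC-Foxc-DKO mouse 2 the 2 classes held nearly the same Lypd8, 2559 and 2436 CPM.

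**Figure D2:**
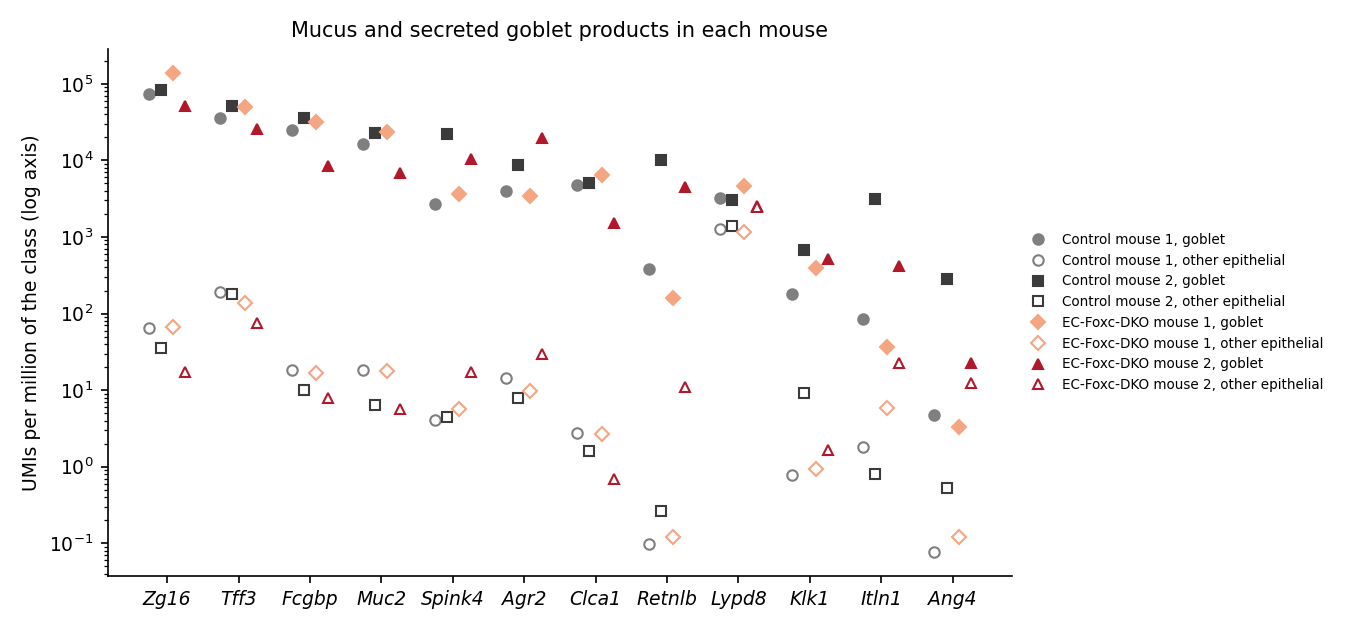
Level of 12 mucus and secreted goblet genes in CPM of the class (log axis) in each mouse, with goblet cells as filled and other epithelial cells as open symbols. Filled and open symbols of a gene lie far apart for Zg16 (11.14 on the log2 scale) and close together for Lypd8 (1.32).

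Among the membrane-bound mucins, which form the glycocalyx and are not secreted, 2 of 4 passed as higher and 0 as lower (median 0.74). Muc3a was higher by 4.48 ± 0.41, from 3.56, 5.32, 6.67 and 20.5 CPM in other epithelial cells to 120, 194, 176 and 120 CPM in goblet cells. Muc13, a membrane mucin of the whole gut epithelium, held 2536, 1460, 1972 and 836 CPM in goblet cells and 1877, 945, 1756 and 955 CPM in other epithelial cells and did not pass (0.42 ± 0.28).

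The enzymes that build mucin O-glycans were higher in number. Of 25 tested, 16 passed as higher and 2 as lower, with a median of 1.60. Galnt5 (9.74 ± 0.54) and Galnt12 (6.02 ± 0.28) start the glycan by adding N-acetylgalactosamine to serine and threonine, and Galnt12 stood at 115, 161, 149 and 189 CPM in goblet cells against 1.32, 4.25, 2.32 and 4.16 CPM. C1galt1, which adds the core 1 galactose, and its chaperone C1galt1c1 were higher by 1.74 ± 0.22 and 1.83 ± 0.25. Gcnt3, the mucin-type branching enzyme, was higher by 5.09 ± 0.43, whereas its relative Gcnt4 was lower by -2.75 ± 0.37 and the sialyltransferase St3gal4 by -1.11 ± 0.28. The related branching enzymes Gcnt3 and Gcnt4 thus went opposite ways.

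ER folding and unfolded protein response genes differed widely among themselves. Of 29 tested, 13 passed as higher and 1 as lower (median 0.66). Ern2, the epithelial form of the stress sensor IRE1, stood at 55.4, 121, 42.0 and 95 CPM in goblet cells against 0.406, 0.532, 0.640 and 0.571 CPM (7.05 ± 0.29; chr7:122169893-122186207, minus strand). Creb3l4 (6.23 ± 0.30) and Creb3l1 (5.46 ± 0.33), membrane-bound transcription factors of secretory cells, and the disulfide isomerase Pdia5 (3.52 ± 0.28) were likewise far higher. Hspa5 (BiP), the main ER chaperone of all cells, did not pass, at 424, 678, 386 and 1765 CPM against 386, 371, 434 and 787 CPM (0.66 ± 0.27), and the lectin chaperone Canx was lower (-0.98 ± 0.27). Agr2 was higher by 9.13 ± 0.47.

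Genes of ER entry and vesicle transport moved little, with 6 of 31 passing as higher and 0 as lower (median 0.38). They included the retrieval receptor Kdelr3 (1.95 ± 0.24) and Mia3 (1.38 ± 0.21), which loads bulky cargo at ER exit sites. Sec61a1, the channel subunit, did not pass at 0.59 ± 0.21.

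Of 18 tested genes of a mixed list of secretory lineage transcription factors and Notch genes, 11 passed as higher and 0 as lower (median 1.02), and the Notch ligand Dll4 was among the 11 (2.21). Atoh1 (chr6:64729125-64731245, plus strand) stood at 104, 88.8, 142 and 104 CPM in goblet cells and at 0.174, 1.06, 0.396 and 0.286 CPM in other epithelial cells (8.64 ± 0.36). Foxa3, a forkhead factor of goblet and endocrine cells, differed by 5.95 ± 0.34 and Foxa1 by 1.99 ± 0.27. Klf4, a factor of terminal differentiation, stood at 880, 710, 669 and 467 CPM against 540, 218, 439 and 305 CPM (1.05 ± 0.27). Hes1, the Notch target that represses Atoh1, did not pass at 0.49 ± 0.26.

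Genes of granule release and the goblet inflammasome, counted as 1 list, went both ways. Of 18 tested, 7 passed as higher and 5 as lower (median 0.30). The higher genes included the granule-docking proteins Sytl2 (8.80 ± 0.41), Rab27a (6.19 ± 0.34) and Rab27b (4.98 ± 0.30). Nlrp6, an inflammasome sensor, stood at 52.6, 0, 28.2 and 23.7 CPM in goblet cells and at 178, 191, 174 and 113 CPM in other epithelial cells (-2.23 ± 0.31), and Il18, a cytokine that inflammasomes mature, was lower by -2.61 ± 0.34.

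Among 10 ion and water transport genes 3 passed as higher and 6 as lower (median -1.66). Slc12a8, a cation-chloride cotransporter family member, was high in goblet cells at 79.3, 186, 66.3 and 310 CPM against 1.34, 1.86, 1.40 and 1.67 CPM (6.53 ± 0.32). The chloride-bicarbonate exchanger Slc26a3 was lower by -2.81 ± 0.30 and the chloride channel Cftr by -1.51 ± 0.31. Of 18 genes of the IL-13 and IL-22 receptors and their responses, 2 passed as higher and 5 as lower (median -0.20). The antibacterial lectin Reg3b stood at 1083, 1945, 3041 and 11972 CPM in goblet cells and at 10724, 12627, 13939 and 36276 CPM in other epithelial cells (-2.28 ± 0.36), and Pigr, the transporter of IgA, was lower by -1.45 ± 0.30. Both classes held the most Reg3b in EC-Foxc-DKO mouse 2. The receptor gene Il13ra1 did not pass at -0.45 ± 0.24.

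**Figure D3:**
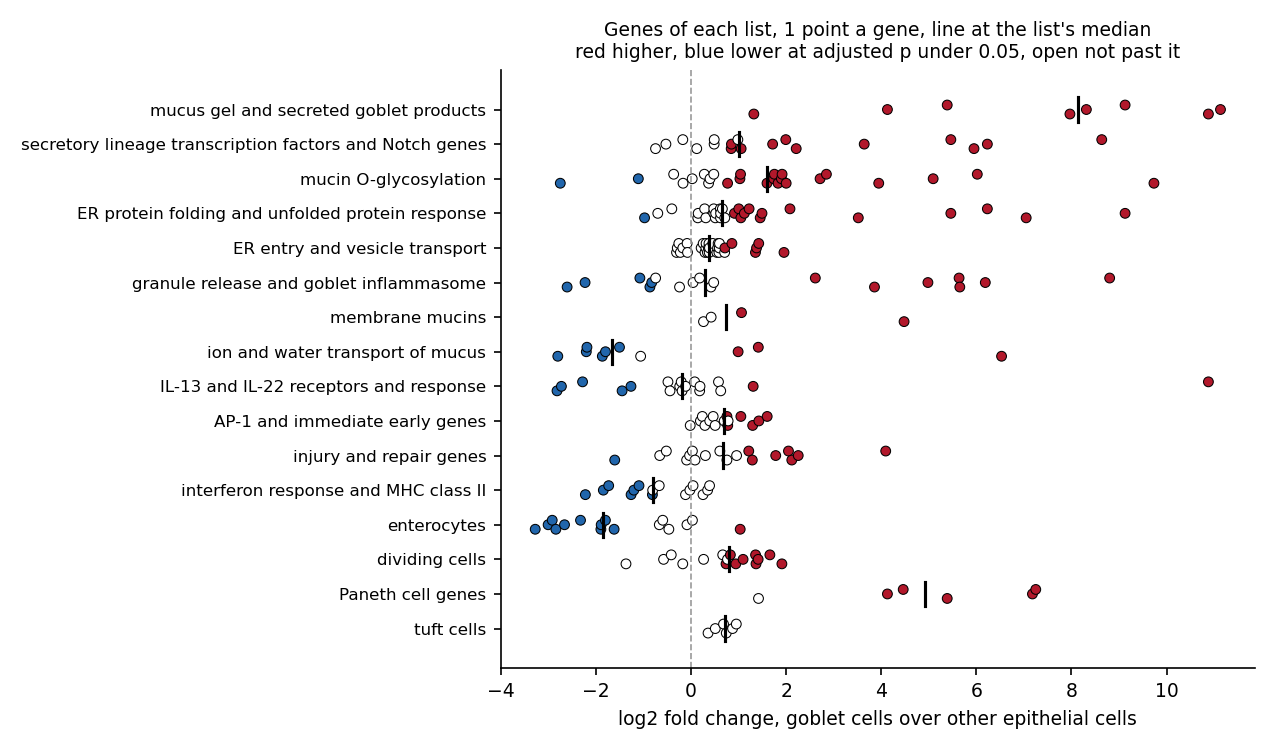
Log2 difference between goblet and other epithelial cells for each tested gene of 16 lists, 1 point a gene, with a bar at each list's median. Red points passed as higher and blue as lower in goblet cells at an adjusted p of 0.05 in edgeR, and open points did not pass; the mucus list lies farthest right (median 8.14) and the enterocyte list farthest left (median -1.85).

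The 10 genes with the lowest p among those higher outside the rule were Pla2g10, Capn9, Bcas1, Rep15, Fer1l6, Tpsg1, Ramp1, Atoh1, Ern2 and Ccl6. Pla2g10, a secreted phospholipase, stood at 46.8, 105, 62.3 and 78.0 CPM in goblet cells (10.11 ± 0.35), and Capn9, a calpain of the digestive tract, differed by 10.38 ± 0.37. Bcas1 (9.46 ± 0.34), Fer1l6 (9.57 ± 0.37), the tryptase Tpsg1 (9.82 ± 0.40), Ramp1 (7.93 ± 0.33), a coreceptor for calcitonin-family peptides, Rep15 (7.44 ± 0.28), a Rab15 effector, and the chemokine Ccl6 (7.16 ± 0.31) completed them. The 10 lowest were the hormones Nts (-6.67), Gip (-7.62), Pyy (-8.08) and Ghrl (-6.00), which the rule itself made scarce by removing hormone-marked cells, and the absorptive-cell genes Slc5a4b (-4.11), Maob (-3.48), Rdh7 (-3.63), Enpep (-2.88), Aldh1a1 (-3.50) and Eci3 (-3.76). All 3 enteroendocrine genes tested outside the rule passed as lower (median -1.68). The other epithelial cells were defined without a limit on hormone genes and held 979, 2728, 1648 and 2032 CPM of the enteroendocrine list. Enpep, a brush border peptidase, stood at 56.4, 32.3, 75.5 and 72.9 CPM in goblet cells and at 525, 462, 519 and 506 CPM in other epithelial cells.

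Enterocyte RNA in goblet cells was unequal between mice. Of 16 enterocyte genes, 1 passed as higher and 10 as lower (median -1.85), among them the brush border enzymes Anpep (-3.01 ± 0.38), Sis (-3.28 ± 0.50) and Lct (-2.92 ± 0.39) and the fatty acid binding protein Fabp2 (-2.33 ± 0.41). The summed list stood at 90450, 33050, 68451 and 24613 CPM in goblet cells of Control mice 1 and 2 and EC-Foxc-DKO mice 1 and 2, at 127132, 85558, 135503 and 96566 CPM in other epithelial cells, and at 4923, 4468, 2791 and 1435 CPM in B cells. Apoa4, an apolipoprotein of absorptive cells, held 30029, 10498, 19622 and 4516 CPM in goblet cells and had a UMI in 94.6%, 50.0%, 88.4% and 37.9% of B cells. Ada, the adenosine deaminase of villus enterocytes, was the gene that passed as higher (1.03 ± 0.33), with 7236, 3575, 4447 and 630 CPM in goblet cells and 3212, 1031, 3670 and 529 CPM in other epithelial cells. The part that free or doublet RNA had in these levels was not tested beyond the B cell values and the removal of high doublet scores.

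Genes of injury and immediate response passed more often as higher than as lower. Of 18 injury and repair genes 7 passed as higher and 1 as lower (median 0.68). S100a6, a calcium-binding protein, stood at 6806, 3211, 5408 and 4958 CPM in goblet cells and at 1084, 611, 970 and 2997 CPM in other epithelial cells (2.25 ± 0.38). Anxa3, an annexin, and Sprr1a, a cornified envelope protein raised in injured epithelium, were higher by 4.09 ± 0.39 and 2.12 ± 0.27. The injury list summed to 13921, 6810, 9299 and 9642 CPM in goblet cells. In enteroendocrine cells it summed to 6990, 4134, 4964 and 13909 CPM, which was more than in goblet cells in EC-Foxc-DKO mouse 2 only. Other epithelial cells of that mouse held 9112 CPM. Of 15 AP-1 and immediate early genes 6 passed as higher and 0 as lower (median 0.69), among them Dusp1 (1.60 ± 0.22), Fosb (1.42 ± 0.24), Egr1 (1.05 ± 0.24) and Jun (0.75 ± 0.25). The AP-1 list summed to 7453, 5422, 5497 and 5221 CPM in goblet cells and to more, 9604, 9030, 6487 and 8547 CPM, in enteroendocrine cells of the same mice, so its level was not highest in goblet cells.

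Of 15 interferon response and antigen presentation genes 7 passed as lower, 0 as higher and 8 did not pass (median -0.81). Cd74, the invariant chain of MHC class II, stood at 242, 56.5, 160 and 207 CPM in goblet cells and at 657, 283, 316 and 535 CPM in other epithelial cells (-1.26 ± 0.26), and H2-Ab1 was lower by -1.10 ± 0.25. Of 14 hypoxia and glucose genes 4 passed as higher and 2 as lower (median -0.30), with the hexokinase Hk2 (2.55 ± 0.36) and the glucose transporter Slc2a1 (1.56 ± 0.33) among the higher. Of 11 heat shock genes 1 passed as higher and 2 as lower (median -0.34), and of 4 metallothioneins 0 and 2 (median -0.62).

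RNA of genes listed for other secretory and crypt cells was found in part of the goblet cells. Of 6 Paneth cell genes tested, 5 passed as higher than in other epithelial cells and 0 as lower (median 4.92). Itln1 and Ang4 stood on both this list and the mucus list, so the counts of these lists are not separate. The metalloprotease Mmp7, which activates defensins, stood at 88.9, 952, 38.1 and 610 CPM in goblet cells (7.25 ± 0.56) and the defensin Defa24 at 540, 14161, 1517 and 6247 CPM (7.18 ± 0.63). The list summed to 754, 28072, 1691 and 7664 CPM and was highest in Control mouse 2. In B cells it came to 5.95, 338, 33.0 and 1055 CPM. The part that free RNA had in the Paneth values and cell counts given here was not tested. Defa24 was the list's most abundant gene in goblet cells of all 4 mice, and 9, 3, 5 and 0 of its 16 genes were at 0 there. The tuft cell list summed to 38.2, 0, 109 and 170 CPM. Counted by cell, 1, 2, 6 and 10 goblet cells held 2 or more UMIs in 3 or more Paneth genes, and 0, 0, 2 and 1 did so for tuft cell genes, whose 6 tested members all missed the threshold. With these 22 cells removed, 1487 genes passed between the classes in place of 2059. Of 16 dividing cell genes 9 passed as higher and 0 as lower (median 0.79), with Top2a at 1.91 ± 0.38 and Mki67 at 1.36 ± 0.31, and a Mki67 UMI was found in 2, 1, 2 and 11 goblet cells. Of 7 stem cell genes 2 passed as higher (Cd24a and the ion cotransporter Slc12a2) and 2 as lower (the Wnt target Axin2, -2.32 ± 0.46, and Aldh1b1), with a median of -0.39.

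Markers of cells outside the epithelium were near 0 in goblet cells. The endothelial list summed to 0.956, 0, 3.28 and 7.63 CPM, the T cell list to 8.60, 8.07, 17.1 and 6.78 CPM, the myeloid list to 9.56, 16.1, 30.2 and 37.3 CPM and the B and plasma cell list to 35.4, 32.3, 99.7 and 43.2 CPM. The stromal list came to 0.956, 16.1, 3.94 and 2.54 CPM and the erythroid list to 17.2, 16.1, 2.62 and 0.848 CPM.

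The goblet cells of EC-Foxc-DKO mouse 2 fell into a wide range of Agr2. Agr2 stood at 3989, 8827, 3380 and 19853 CPM in Control mice 1 and 2 and EC-Foxc-DKO mice 1 and 2, and 1 cell held 74.7%, 86.6%, 26.1% and 5.9% of those UMIs. A limit of 1% of a cell's UMIs, chosen after the values were seen, is a point on this range and marks no cell type, and 2, 1, 5 and 7 cells lay between 0.5% and 2%. Within EC-Foxc-DKO mouse 2, the 26 cells above it had a median of 30102 UMIs and the 27 below it 9584. Medians above and below were 1979 and 422 CPM for Hspa5, 2947 and 103 CPM for Retnlb, 8402 and 3613 CPM for Spink4, 4805 and 15689 CPM for Muc2, 29839 and 69623 CPM for Zg16 and 20691 and 54229 CPM for Tff3. Of the cells with a Mki67 UMI, 10 lay above and 1 below, and the cells above were also the deeper ones. Cells rich in Agr2 thus held more Hspa5, Retnlb and Spink4 and less Muc2, Zg16 and Tff3 RNA per UMI, as values within 1 mouse and with no test.

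Enterocyte RNA was lower in the cells rich in Agr2. It took a median of 0.155% of UMIs in the 26 cells above the limit and 0.742% in the 27 below. Over all goblet cells its median was 7.35%, 0.245%, 1.68% and 0.199% in Control mice 1 and 2 and EC-Foxc-DKO mice 1 and 2, so Control mouse 1 held the most in its typical goblet cell. Its 54 cells below the Agr2 limit had medians of 20470 CPM of Apoa4, 4089 CPM of Ada and 1055 CPM of Klf4.

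**Figure D4:**
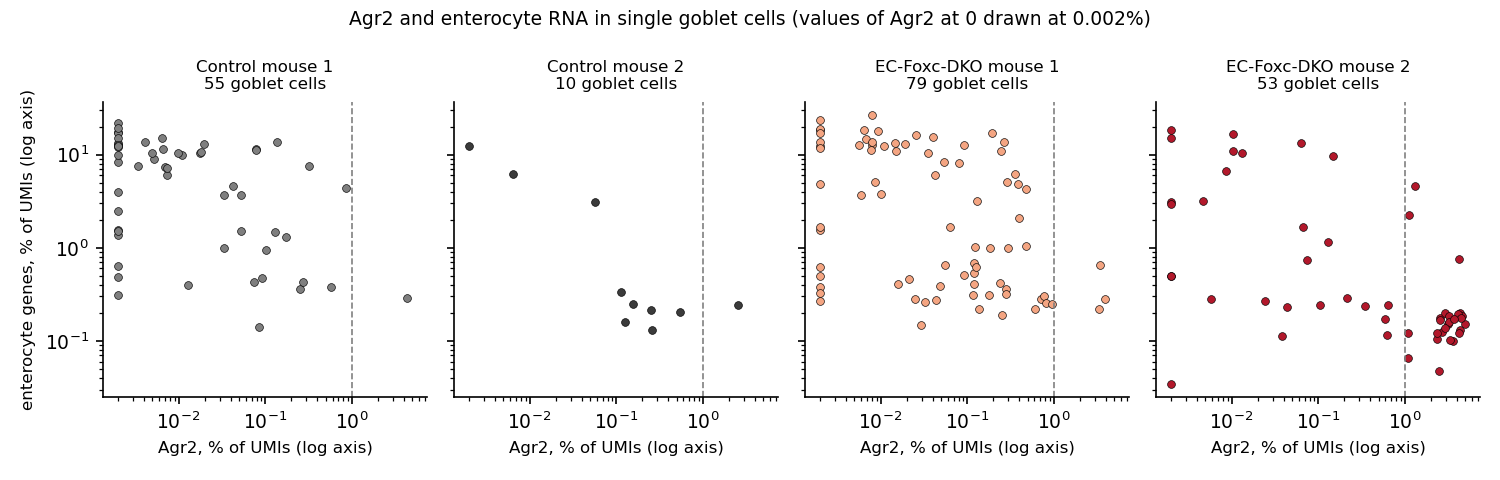
Each point is 1 goblet cell, with Agr2 on the horizontal and the summed enterocyte list on the vertical axis, both in percent of the cell's UMIs on log axes, 1 panel a mouse and a dashed line at 1% Agr2. The 26 points right of the line in EC-Foxc-DKO mouse 2 lie mostly near 0.155% enterocyte RNA, and Control mouse 1 has most points to the left and top.

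Retnlb, an antibacterial resistin-like protein of goblet cells (chr16:48816856-48818892, plus strand), lay almost wholly in 1 cell in both Control mice and over several cells in both EC-Foxc-DKO mice. It stood at 377, 10014, 157 and 4456 CPM in goblet cells and at 0.0967, 0.266, 0.122 and 11.1 CPM in other epithelial cells (10.88 ± 0.77 between classes). In Control mice 1 and 2, 1 cell held 97.2% and 99.7% of the UMIs, against 28.8% and 27.1% in EC-Foxc-DKO mice 1 and 2. A Retnlb UMI was found in 16.4%, 30.0%, 34.2% and 83.0% of goblet cells and, with each cell thinned to 2000 UMIs and 9 shallower Control and 5 shallower EC-Foxc-DKO goblet cells left out, in 4.3%, 21.3%, 10.6% and 60.9%. In B cells the unthinned share was 0%, 0%, 0% and 1.9%. The order of the CPM and of the shares differed, with Control mouse 2 first by CPM and EC-Foxc-DKO mouse 2 first by share, and no order between groups was read from either.

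The question the study's design puts to these cells is whether loss of Foxc1 and Foxc2 in endothelium went with a different goblet cell transcriptome after I/R. In edgeR's quasi-likelihood test on the summed UMIs of 2 Control and 2 EC-Foxc-DKO mice, 0 of 6939 genes passed a Benjamini-Hochberg adjusted p of 0.05 (0% of those tested), 289 genes had an unadjusted p under 0.05, and DESeq2 called 1, Dmbt1. This count depended on single libraries. It was 13 without Control mouse 1, 13 without Control mouse 2, 346 without EC-Foxc-DKO mouse 1 and 3 without EC-Foxc-DKO mouse 2, where the mouse left alone is taken to vary like the others. With the replicate number as a block it was 32. The unblocked edgeR fit of all 4 mice thus detected no difference between genotypes, which does not show that the groups were alike.

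Genes with the lowest p in each direction are given as values that did not pass. Mgst1, a membrane glutathione transferase, stood at 29.6, 8.07, 162 and 254 CPM in goblet cells of Control mice 1 and 2 and EC-Foxc-DKO mice 1 and 2 (log2 difference EC-Foxc-DKO over Control 3.07 ± 0.65, adjusted p = 0.931 in edgeR). Tfrc, the transferrin receptor, stood at 3.82, 0, 29.5 and 50.9 CPM, and Ppp1r1b, a phosphatase inhibitor, at 4.78, 8.07, 34.1 and 68.7 CPM. Both EC-Foxc-DKO mice lay above both Control mice for these 3 genes, as they did for 19.5% of the 6939 genes tested, and in EC-Foxc-DKO mouse 1 a single cell held 53.4% of the Mgst1 and 71.2% of the Ppp1r1b UMIs. Dmbt1, a secreted scavenger receptor, stood at 1.91, 8.07, 154 and 85.6 CPM (5.35 ± 0.92, adjusted p = 0.585 in edgeR), and 1 cell held 98.7% of its UMIs in EC-Foxc-DKO mouse 1.

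On the lower side were Ubd, an interferon-inducible ubiquitin-like protein, at 33.4, 24.2, 3.28 and 4.24 CPM (-3.05 ± 0.71, adjusted p = 0.931 in edgeR), Pde4d, a cyclic AMP phosphodiesterase, at 40.1, 80.7, 14.4 and 9.33 CPM, and Rnase1, a secreted ribonuclease, at 18.2, 72.6, 4.59 and 6.78 CPM. In these 3 genes both EC-Foxc-DKO mice lay below both Control mice, as in 15.4% of the genes tested. Defa30, a defensin, stood at 1.91, 4002, 3.28 and 13.6 CPM and rested on Control mouse 2, where 1 cell held 99.2% of it, and its log2 difference of -8.01 became 1.84 without that mouse. Ifit1bl1, an interferon-induced gene, stood at 246, 0, 15.7 and 5.09 CPM and rested on Control mouse 1, where 1 cell held 84.8%, and its log2 difference turned from -3.67 to 6.40 without that mouse.

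With all 4 mice no gene of any list passed between genotypes in edgeR. The mucus list had 4 of 8 tested genes with a positive log2 difference (median -0.08), beside 3686 of 6939 genes overall (median 0.06). With each mouse left out its median was -0.12 without Control mouse 1 (5 of 10 positive), 1.17 without Control mouse 2 (10 of 10), -0.58 without EC-Foxc-DKO mouse 1 (3 of 10) and -0.43 without EC-Foxc-DKO mouse 2 (3 of 8). The mucus list shares Itln1 and Ang4 with the Paneth list. These genes stood at 3139 and 282 CPM in goblet cells of Control mouse 2, so the lists do not move independently. Among ER folding genes 22 of 28 were positive (median 0.50) and among ER entry genes 25 of 31 (median 0.40). Without EC-Foxc-DKO mouse 2 both turned, to 4 of 27 (median -0.46) and 11 of 31 (median -0.11), while the medians were 0.16 and 0.28 without Control mouse 1, 0.84 and 0.53 without Control mouse 2, and 0.92 and 0.76 without EC-Foxc-DKO mouse 1. The summed ER folding list stood at 8004, 14718, 6873 and 31835 CPM. EC-Foxc-DKO mouse 2 was thus the highest and EC-Foxc-DKO mouse 1 the lowest of the 4, and the groups overlapped. Agr2 alone made up 3989, 8827, 3380 and 19853 CPM of these sums. In other epithelial cells the list stood at 3931, 4068, 4162 and 6609 CPM, again highest in EC-Foxc-DKO mouse 2. In B cells it stood at 2762, 6036, 2928 and 5335 CPM. Of Paneth cell genes 1 of 9 was positive (median -2.99), and the summed list was highest in Control mouse 2. Without that mouse 8 of 8 tested were positive (median 1.94). With each other mouse left out 1 of 12 was positive. The medians were then -4.44 without Control mouse 1, -2.77 without EC-Foxc-DKO mouse 1 and -5.63 without EC-Foxc-DKO mouse 2. Among heat shock genes 9 of 11 were positive (median 1.76). Their median was 1.74 without Control mouse 1, 1.42 without Control mouse 2, 2.32 without EC-Foxc-DKO mouse 1 and 0.64 without EC-Foxc-DKO mouse 2. Their sum was 1306, 1194, 2010 and 6344 CPM. Both EC-Foxc-DKO mice lay above both Control mice, as they did for 19.5% of the 6939 genes tested. In other epithelial cells the sum was 2304, 3609, 3107 and 5775 CPM. In enteroendocrine cells it was 3366, 4196, 4028 and 5866 CPM, and the groups overlapped in both of these classes. Hspd1, a mitochondrial chaperonin, stood at 34.4, 88.8, 82.0 and 410 CPM and overlapped between groups.

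A second fit asked whether the genotype difference in goblet cells was unequal to that in the other epithelial cells of the same mice. Of 9916 genes, 52 passed an adjusted p of 0.05 in edgeR's interaction test, which is 0.524%, and 17 of them were relatively higher in EC-Foxc-DKO goblet cells (0.171%) and 35 relatively lower (0.353%). DESeq2 called 5. Paneth cell genes filled much of the lower set. Of 12 tested, 11 passed as lower (median -5.86), and the summed Paneth list was highest in goblet cells of Control mouse 2, as given above. In other epithelial cells, whose effect is subtracted in this fit, the list summed to 5.21, 47.3, 59.4 and 539 CPM and was highest in EC-Foxc-DKO mouse 2. In B cells it summed to 5.95, 338, 33.0 and 1055 CPM, above the other epithelial cells in every mouse except EC-Foxc-DKO mouse 1. The part of free RNA in these levels was not tested. Without Control mouse 2 the median interaction of the Paneth genes was -0.12, with 7 of 15 tested positive. It was -7.62 without Control mouse 1, -6.90 without EC-Foxc-DKO mouse 1 and -5.22 without EC-Foxc-DKO mouse 2, with 1 gene positive in each. Lyz1, the Paneth cell lysozyme, stood at 31.5, 2695, 79.4 and 226 CPM in goblet cells and at 0.6, 3.99, 16.5 and 52.2 CPM in other epithelial cells (interaction -5.48 on the log2 scale). The lectin Itln1 stood at 86.0, 3139, 36.1 and 424 CPM against 1.78, 0.798, 5.85 and 22.8 CPM (-4.31). Of Defa29 UMIs in Control mouse 2, 100% lay in 1 cell, and of Defa22 UMIs 96.6%. The most Paneth genes at 2 or more UMIs in 1 goblet cell were 4, 13, 4 and 8. Without Control mouse 2, which had 10 goblet cells, 20 genes passed, of which 19 were among the 52, and without Control mouse 1, EC-Foxc-DKO mouse 1 and EC-Foxc-DKO mouse 2 the counts were 30, 88 and 28. With the 22 cells of high Paneth or tuft RNA removed 43 genes passed, 32 of them among the 52.

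Of the higher set, some genes were carried by 1 cell and others by several. Hspe1, the small mitochondrial chaperonin, stood at 33.4, 96.8, 207 and 525 CPM in goblet cells and at 141, 289, 181 and 501 CPM in other epithelial cells (interaction 1.96 on the log2 scale), with 79.7% of its UMIs in 1 cell of EC-Foxc-DKO mouse 1 but 10.5% in the richest cell of EC-Foxc-DKO mouse 2. Olfm4, a crypt gene, stood at 0.956, 8.07, 53.8 and 17 CPM in goblet cells (4.44), with 95.1% in 1 cell of EC-Foxc-DKO mouse 1. In other epithelial cells it stood at 6.87, 338, 40.2 and 28.9 CPM, so its interaction also holds the high level of Control mouse 2 there. Gng11, a G protein subunit, stood at 1.91, 0, 17.1 and 22 CPM against 30.7, 30.3, 26.2 and 9.83 CPM in other epithelial cells (4.38), with 19.2% and 30.8% of its UMIs in the richest cell of EC-Foxc-DKO mice 1 and 2, and Ebpl at 7.65, 8.07, 34.8 and 46.6 CPM against 82.9, 75, 81.1 and 69.2 CPM (2.48), with 34.0% and 9.09%. Lrmp, a gene of tuft cells, stood at 1.91, 0, 12.5 and 73.8 CPM against 7.45, 33.8, 6.40 and 17.3 CPM (4.17), with 52.6% of its UMIs in 1 cell of EC-Foxc-DKO mouse 1 and 100% in 1 cell of EC-Foxc-DKO mouse 2.

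**Figure D5:**
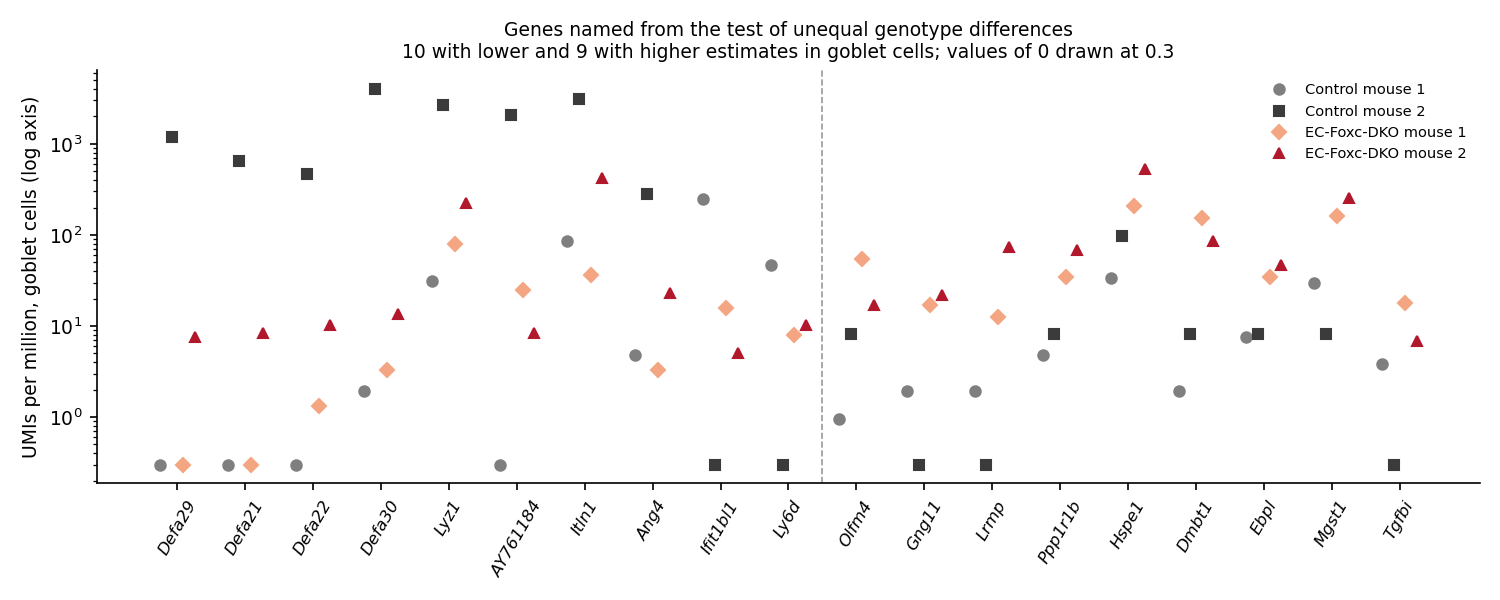
Goblet cell level in CPM (log axis, values of 0 drawn at 0.3) in each mouse for the 19 genes named from the interaction test, lower ones left and higher ones right of the dashed line. Control mouse 2 (dark squares) stands above the rest for 8 genes on the left, such as Lyz1 at 2695 CPM, and Control mouse 1 for Ifit1bl1 at 246 and Ly6d at 46.8 CPM. The levels in other epithelial cells, which also enter the test, are not drawn.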

How the data were processed

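Jejunal cells were captured with 10x Genomics 3′ v3.1 chemistry, 1 library per mouse. Per the labels the deposited values are UMI counts per gene and barcode made with Cell Ranger 4.0.0 on mm10 (the study's methods state another version). All 4 matrices of 32286 features were used as deposited, with no correction for free RNA. The 12 genes of the rule were described and not tested. Members and lists were chosen with earlier results of these data known. Counts were summed per mouse and class and fitted with edgeR 4.0.16 (filterByExpr, TMM, quasi-likelihood, Benjamini-Hochberg at 0.05) in R 4.3.3. DESeq2 1.42.0, other filters and each mouse left out served as alternatives, and scripts were tested on simulated data. UMI sums of goblet cells were 1046341, 123932, 1524224 and 1179555 in Control mice 1 and 2 and EC-Foxc-DKO mice 1 and 2. A 3′ count is 1 tag per molecule, so CPM is not scaled by length. Doublets were kept: Scrublet's own threshold marked 3, 1, 13 and 16 barcodes and did not work, so as an alternative the highest scores were removed in proportion to library size, 11 goblet cells among them. Named genes were, in each fit, the 10 of lowest p per direction past the threshold, or the 5 of lowest p where fewer than 5 passed, without mt-, Gm and Rik genes, and members of the lists, lowest p first. Other genes were named after their values were seen, and 2 genes are not reported here. Positions are from the GENCODE M21 annotation of GRCm38. Single-cell tests of the study (MAST) were replaced by sums per mouse. A joined table of the 4 libraries with fewer genes was not used.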

Additional observations from a re-analysis of the deposited data

Results flagged for a closer look

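The genotype difference in goblet cells was unequal to that in other epithelial cells for 52 genes by the edgeR interaction test at an adjusted p of 0.05. Log2 values below are the effect in goblet cells minus that in other epithelial cells. The relatively higher genes included Olfm4 (4.44), Gng11 (4.38), Lrmp (4.17), Ppp1r1b (2.83), Hspe1 (1.96), Dmbt1 (3.65), Ebpl (2.48), Mgst1 (2.13) and Tgfbi (3.05). Of these, Ppp1r1b had 71.2% and Mgst1 53.4% of its UMIs in 1 cell of EC-Foxc-DKO mouse 1, and Tgfbi stood at 3.82, 0, 17.7 and 6.78 CPM in goblet cells of Control mice 1 and 2 and EC-Foxc-DKO mice 1 and 2 and at 86.1, 64.4, 62.7 and 15.3 CPM in their other epithelial cells. In other epithelial cells Olfm4 was highest in Control mouse 2 (338 CPM) and Dmbt1 in EC-Foxc-DKO mouse 2 (585 CPM).

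The relatively lower genes included Defa29 (-11.74), Defa21 (-10.07), Defa22 (-10.57), Defa30 (-10.23), Lyz1 (-5.48), AY761184 (-8.09), Itln1 (-4.31), Ang4 (-6.24), Ifit1bl1 (-3.42) and Ly6d (-3.74). In goblet cells Defa29 stood at 0, 1194, 0 and 7.63 CPM, Defa21 at 0, 646, 0 and 8.48 CPM, Defa22 at 0, 468, 1.31 and 10.2 CPM, AY761184 at 0, 2058, 24.9 and 8.48 CPM and Ang4 at 4.78, 282, 3.28 and 22.9 CPM. In other epithelial cells Defa29 stood at 0.0774, 0.266, 1.13 and 31.5 CPM, Defa21 at 0.135, 2.39, 3.38 and 58.1 CPM, Defa22 at 0.0774, 0.532, 3.05 and 65.4 CPM, AY761184 at 0.0387, 1.86, 1.25 and 25.9 CPM and Ang4 at 0.0774, 0.532, 0.122 and 12.4 CPM, each highest in EC-Foxc-DKO mouse 2. The summed Paneth list stood at 5.95, 338, 33.0 and 1055 CPM in B cells of the same mice and at 5.21, 47.3, 59.4 and 539 CPM in other epithelial cells. The part of free RNA in these levels was not tested. In Control mouse 2, 1 cell held 100% of the UMIs of Defa29, Defa21 and AY761184, 77.1% of Ang4, 53.7% of Itln1 and 48.8% of Lyz1. Ly6d stood at 46.8, 0, 7.87 and 10.2 CPM in goblet cells, with 87.8% in 1 cell of Control mouse 1, and at 34.9, 1.33, 34.5 and 185 CPM in other epithelial cells, again highest in EC-Foxc-DKO mouse 2. Sizes fitted against groups at 0 depend on the prior count and are no bounds.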

How the results depend on the processing

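With 2 mice per group, 10 goblet cells in Control mouse 2 and 123932 UMIs in their sum, depth limits every genotype comparison, and a sum per mouse does not show whether 1 cell or many carried a gene, for which the share in the richest cell is given. Where Control mouse 2 fell under 10 goblet cells (a limit of 10% mitochondrial UMIs, 4 of 5 markers, high doublet scores removed), it dropped out of the fit and 3 mice were left, so these settings were also run with all 4 mice, which was chosen after seeing the data, as was the removal of 22 goblet cells with Paneth or tuft RNA and the thinning of classes to equal UMIs.

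The count of genes between genotypes, 0 with all 4 mice, was 1 with DESeq2, 1 with 4 of 5 markers in 3 mice (Ifit1bl1), 18 with high doublet scores removed in 3 mice and 3 to 346 with each mouse left out. It was 0 in all 3 of these settings with 4 mice kept, with library size scaling, without a filter, without mt- genes and without Ptprc-positive cells. Replicate numbers are shared by the groups, and same-numbered mice had deviations that correlated at r = 0.316 across 6946 genes, but with 2 pairs the mice share only a number. The replicate block gave 32 genes, 12 higher and 20 lower. Between goblet and other epithelial cells the 2059 genes became 954 without the mouse block, all of them among the 2059, 1561 with classes thinned to equal UMIs and 1346 to 2298 with each mouse left out. The 52 interaction genes became 5 with DESeq2 (Defa26, Defa24, Mmp7, Lyz1 and Ly6g, all among the 52), 20 to 88 with each mouse left out, 29 with the 10% mitochondrial limit and 28 with 4 of 5 markers, both in 4 mice. The difference in goblet cell share became 3.94 points at the 10% mitochondrial limit and ranged from 0.364 to 2.61 points with each mouse left out.

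The log2 estimates of some named genes changed sign, and none of the values of changed sign passed. Defa30 between genotypes became 1.44 at the 10% mitochondrial limit, 2.76 with 4 of 5 markers (0.044 in 4 mice), 1.82 with high doublet scores removed and -9.10 to 1.84 with each mouse left out (1.84 without Control replicate 2), and Ifit1bl1 ranged from -5.09 to 6.40 (6.40 without Control replicate 1). In the interaction, removing Ptprc-positive cells gave Lrmp -0.68, and removing cells with Paneth or tuft RNA gave Lrmp -0.71, Defa29 0.68 and Defa21 1.95. The 10% mitochondrial limit gave Defa29 1.73, Defa22 1.77 and AY761184 4.10, and in 4 mice Defa29 1.30, Defa21 1.88, Defa22 1.69 and AY761184 6.14. Requiring 4 of 5 markers gave Defa29 1.29, Defa21 1.30, Defa22 1.09 and AY761184 4.34, and in 4 mice Defa29 1.45, Defa21 2.59 and AY761184 6.57. Removing high doublet scores gave Defa29 1.63, Defa21 1.26, Defa22 1.25, AY761184 4.41 and Itln1 0.30. With each mouse left out Defa29 ranged from -16.72 to 1.34, Defa21 from -15.77 to 1.33, Defa22 from -12.29 to 1.05 and AY761184 from -11.15 to 4.24, each positive without Control replicate 2 only, and Ifit1bl1 from -4.19 to 8.56 and Ly6d from -4.78 to 3.51, both positive without Control replicate 1 only. In each case but the Ptprc removal and the loss of Control replicate 1, the setting took out Control mouse 2 or its Paneth-rich cells or cells with tuft RNA. Itln1 stayed negative, at -8.41 to -2.17, with each mouse left out, Control replicate 2 included. The cause of the changes of sign was not tested.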
